A study of Rattus norvegicus with 12 samples.

Results

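The genes that build, sulfate and trim glycosaminoglycan chains were examined in UMR-106 cells, a rat osteoblast-like cell line of osteosarcoma origin. The set was defined by gene name from textbook roles, with earlier results of these data known, and 38 genes were named. Of these, 37 were listed in both tables of the series, among 18058 genes common to the tables, and Hs3st1 was not analysed here. The 37 genes comprised 6 of the linker, 6 of the chondroitin chain, 7 of chondroitin sulfation and epimerisation, 5 of the heparan chain, 7 of heparan modification, 2 extracellular sulfatases and 4 of precursor supply.

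The glycosaminoglycans of the chondroitin and heparan kinds are long sugar chains attached to the core proteins of proteoglycans. A short linker is first built on a serine of the core protein, and the chain is then extended either as chondroitin or as heparan, after which sulfotransferases and epimerases modify it. The sulfate groups come from the donor PAPS and set what the chain can bind, and in bone such chains hold growth factors and water in the matrix.

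Messenger RNA was sequenced in 12 libraries, 3 in each of 4 groups, which the study describes as biological replicates. Control cells (genotype WT in the labels) and NFAT5KO cells were kept for 24 h in medium with NaCl lowered by 20 mM (-NaCl) or raised by 20 mM (+NaCl), so that the media differed by 40 mM. NFAT5 is the transcription factor through which many cells adapt to hypertonic medium, and the comparison asks which responses to NaCl change when it is disrupted. The NFAT5KO cells were made with CRISPR/Cas9 guides and come from 1 single-cell clone, so that a property of the clone and an effect of the knockout cannot be told apart. All groups shared the parental line. By the study's general culture methods, cells were grown with serum, experimental media held calcitriol, the active form of vitamin D, and low-NaCl media were prepared from a custom NaCl-free base.

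The libraries held 14267946 to 22798804 reads. Nfat5 itself was lower in every NFAT5KO library than in any control library, with 43.3 to 57.0 RPM (reads per 1000000 reads of the library) at -NaCl and 77.1 to 88.5 at +NaCl, against 159 to 174 and 247 to 267 in control cells. The study reported a complete knockout by immunoblot and did not detect Nfat5 mRNA in NFAT5KO cells by qRT-PCR. The forward primer it lists for checking the deletion shares bases with its guide for exon 1, whereas reads here were counted per gene. The measures are therefore unlike. Here Nfat5 reads remained in NFAT5KO cells and were higher at +NaCl, and the cause was not tested. Of 11 osteoblast markers 10 reached a mean of 1 RPM in each group, and their summed level was 3912 to 4092 RPM in control -NaCl, 6486 to 6874 in control +NaCl, 3972 to 4586 in NFAT5KO -NaCl and 5104 to 5179 in NFAT5KO +NaCl libraries. The marker level therefore moved with NaCl in the same direction as most of the called genes, and its part in their changes was not tested. By limma, 10 of the 11 rose in control cells (90.9%, against 13.3% of all genes) and 4 in NFAT5KO cells (36.4%, against 7.29%). For 3 of the 11 the response to NaCl was more negative in NFAT5KO than in control cells (27.3%, against 1.44% of all genes). Of 9 chondrocyte markers, 7 reached a mean of 1 RPM in control and 5 in NFAT5KO cells. Their sums were 190 to 204 RPM in control -NaCl and 188 to 207 in control +NaCl libraries, which overlapped. They were 160 to 174 in NFAT5KO -NaCl and 139 to 150 in NFAT5KO +NaCl libraries, which did not overlap. The control sum hid opposite moves, as 2 of 8 tested chondrocyte markers rose and 2 fell (limma, adjusted p below 0.05). The Col11a2 median went from 35.3 RPM in control -NaCl to 75.9 in control +NaCl libraries. Medians of Hapln1 and Matn3 went from 115 to 70.9 and from 9.51 to 4.39. In NFAT5KO -NaCl libraries the medians were 10.8 for Col11a2, 0.754 for Acan (7.32 in control -NaCl) and 121 for Hapln1. Summed markers of adipocytes, leukocytes, endothelium and muscle stayed below 5 RPM in every library. In bulk RNA, fewer cells of a kind and less RNA per cell cannot be told apart. NFAT5KO -NaCl replicate 1 stood apart from its group: on the first principal component of the NFAT5KO table, which held 30.7% of the variance, it scored -9.56, against -47.2 and -32.4 for the other two and 23.9 to 39.8 for the +NaCl libraries. On the second component, control +NaCl replicate 1 scored -49.2 against 34.1 and 22.9 for its group (18.4% of the variance of the control table), and NFAT5KO +NaCl replicates 1, 2 and 3 scored 47.0, -42.0 and 6.67 (20.8%).

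In control cells, 13 of the 37 genes rose with +NaCl and 3 fell (limma on log2 of the normalized count plus 1, adjusted p below 0.05), and 21 did not pass the test. The risers were 35.1% of the set, against 13.3% of all 17108 genes tested, and the fallers 8.11%, against 12.7%. In both directions together 26.0% of all genes passed. The median log2 fold change was 0.16 over the 37 genes and 0.00 over all genes. In NFAT5KO cells, 8 of the 37 genes rose (21.6%, against 7.29% of 16657 genes) and 3 fell (8.11%, against 7.37%), with 14.7% of all genes passing in either direction and a median log2 fold change of 0.04 over the set. No gene was called upward in one genotype and downward in the other. With 3 libraries against 3, exact permutation of a single gene could not have gone below p = 0.1, so the fit across all genes was used.

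**Figure D1:**
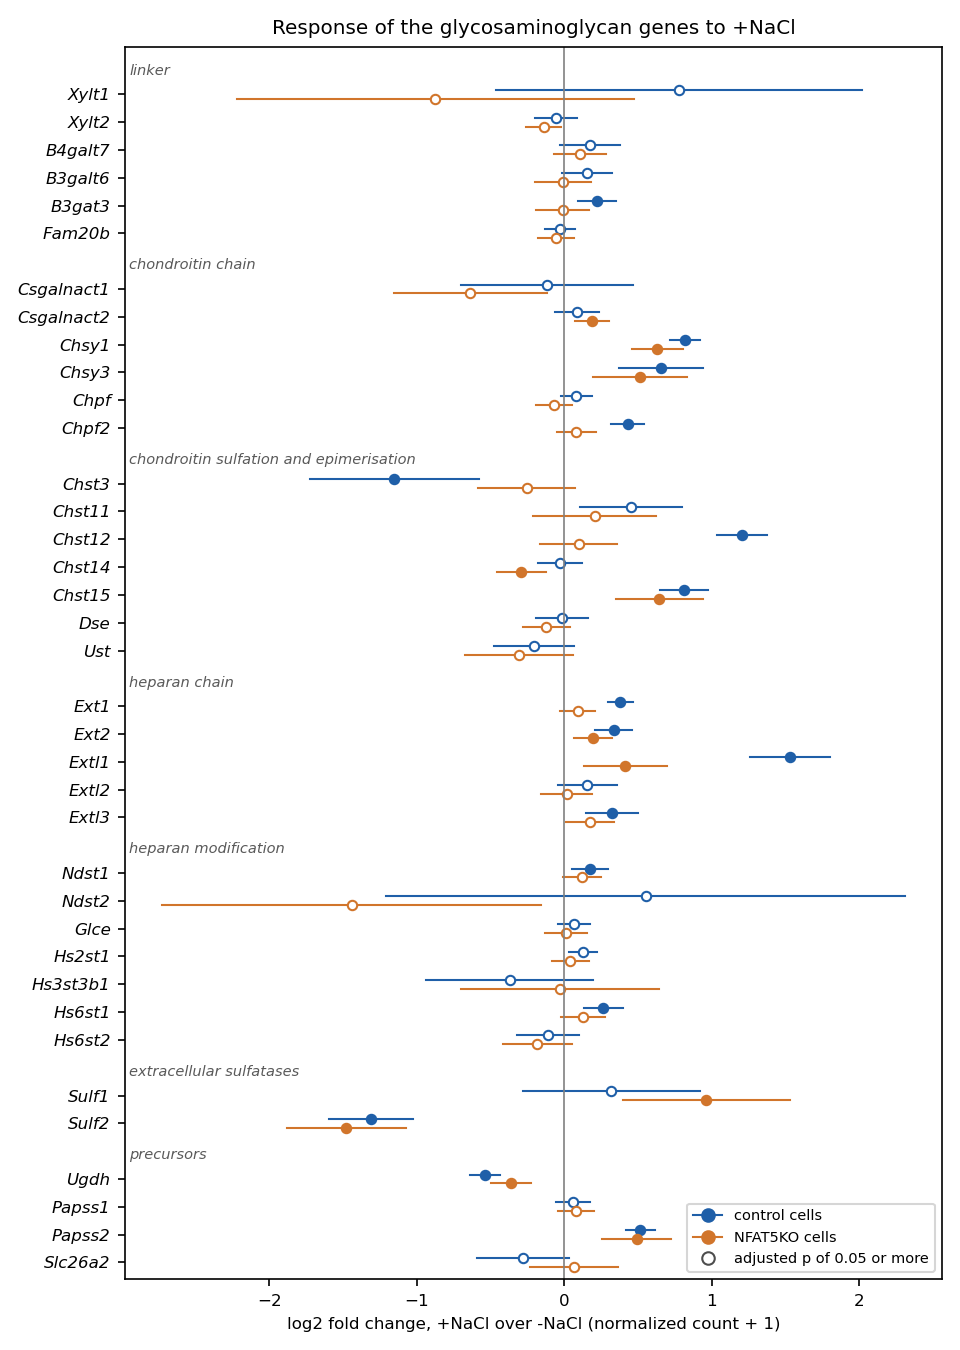
Log2 fold change of +NaCl over -NaCl for each of the 37 genes in control (blue) and NFAT5KO (orange) cells, grouped by role; bars are 95% intervals from limma and open points did not reach an adjusted p of 0.05. Chst12 (1.21) and Extl1 (1.53) stand far to the right in control cells only, and Sulf2 lies at -1.31 and -1.48.

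Among 6 linker genes, 1 was called in control cells (16.7%, against 26.0% of all genes). In NFAT5KO cells 0 were called (against 14.7% of all genes, limma, with 1 at an unadjusted p below 0.05). B3gat3, which adds the glucuronic acid that completes the linker, rose in control cells from 1041, 1041 and 1018 normalized counts at -NaCl to 1311, 1154 and 1157 at +NaCl. The groups did not overlap, and the log2 fold change was 0.22 (SE 0.06, adjusted p = 0.0179), but the call was lost without control +NaCl replicate 1 (adjusted p up to 0.0934 over all alternatives). In NFAT5KO cells B3gat3 had a log2 fold change of -0.01. Xylt2, one of the xylosyltransferases that start every chain, held a mean of 1118 and 1077 normalized counts in control cells at -NaCl and +NaCl, and Fam20b, the kinase that phosphorylates the linker xylose, 2753 and 2699. B4galt7 and B3galt6, which add the linker galactoses, had log2 fold changes of 0.18 and 0.16 in control cells that did not pass. Xylt1 was nearly silent, with 1 to 7 reads in each library, so that a difference between its groups was not detectable at this depth.

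The chondroitin synthases rose in both genotypes. Chsy1, the chondroitin synthase that adds both sugars of the repeat, held 1684, 1678 and 1561 normalized counts in control -NaCl and 2815, 2958 and 2897 in control +NaCl libraries. The NFAT5KO libraries held 1627, 1370 and 1384 at -NaCl and 2417, 2060 and 2298 at +NaCl. All +NaCl libraries lay above all -NaCl libraries of their genotype, and the rise was 1.76-fold in control (log2 0.82, SE 0.05, adjusted p = 7.22e-07) and 1.55-fold in NFAT5KO cells (log2 0.63, SE 0.08, adjusted p = 0.00106). The difference between these responses was -0.19 on the log2 scale with a 95% interval of -0.39 to 0.02, which did not pass the test.

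Chsy3, the less abundant synthase, also rose at a lower level, but its NFAT5KO call was lost in 8 of 17 alternatives. Its mean went from 109 to 173 normalized counts in control cells (log2 0.66, SE 0.13, adjusted p = 0.00327) and from 95.2 to 136 in NFAT5KO cells (log2 0.52, SE 0.15, adjusted p = 0.0363). Csgalnact2, an enzyme that adds the first N-acetylgalactosamine and so commits the chain to chondroitin, passed in NFAT5KO cells, with 1694, 1624 and 1651 normalized counts at -NaCl and 1845, 1962 and 1867 at +NaCl (log2 0.19, SE 0.05, adjusted p = 0.0326). This call of Csgalnact2 was lost in 7 of 17 alternatives. In control cells its groups overlapped, with a log2 fold change of 0.09, and the difference between the genotypes was 0.10 with an interval of -0.08 to 0.29. Csgalnact1, its paralog, was low, with 28 to 100 reads in each library, and did not pass in either genotype. Chpf, a polymerizing factor that works with the synthases, did not pass either, with log2 fold changes of 0.08 and -0.07. Chpf2 is described with the differences between the genotypes.

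The sulfotransferases and epimerases of chondroitin moved in both directions. Chst15, which adds a second sulfate to 4-sulfated N-acetylgalactosamine, held 293, 298 and 295 normalized counts in control -NaCl and 490, 538 and 532 in control +NaCl libraries. In NFAT5KO cells the values were 417, 277 and 318 at -NaCl and 496, 488 and 581 at +NaCl. Within each genotype the -NaCl and +NaCl groups did not overlap, although NFAT5KO -NaCl replicate 1 was the highest of its group. The rises were 1.76-fold in control (log2 0.81, SE 0.07, adjusted p = 1.96e-05) and 1.56-fold in NFAT5KO cells (log2 0.65, SE 0.13, adjusted p = 0.00948). A pseudogene on the opposite strand overlaps Chst15 in the annotation, and reads of the pair cannot be assigned without strand.

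Chst3, the sulfotransferase of the 6 position, went the other way in control cells. It held 83.6, 126 and 79.1 normalized counts at -NaCl and 32.8, 38.2 and 58.3 at +NaCl, a fall without overlap (log2 -1.15, SE 0.26, adjusted p = 0.00734). In NFAT5KO cells it held 137, 187 and 186 at -NaCl and 131, 155 and 138 at +NaCl, which overlapped (log2 -0.25, adjusted p = 0.295 in limma). The difference was 0.90 with an interval of 0.23 to 1.56, the largest positive one of the 37 genes, and it did not pass over all genes (adjusted p = 0.200).

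Chst14, the sulfotransferase specific to dermatan sulfate, fell in NFAT5KO cells from 774, 814 and 792 to 698, 590 and 664 normalized counts (log2 -0.29, SE 0.07, adjusted p = 0.0246). This call of Chst14 was lost in 5 of 17 alternatives. In control cells its means were 713 and 700, and the difference of -0.26 did not pass (adjusted p = 0.255 in limma). The epimerase Dse and the uronyl sulfotransferase Ust, which act on the same dermatan-type regions, did not pass in either genotype, with log2 fold changes between -0.31 and -0.02. Chst11, a 4-sulfotransferase, held 72.5 to 88.9 normalized counts in control -NaCl and 98.6 to 119 in control +NaCl libraries without overlap, and missed the threshold (log2 0.45, adjusted p = 0.0567 in limma).

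In the heparan chain, 4 of 5 genes rose in control cells (against 13.3% of all genes) and 2 of 5 in NFAT5KO cells (against 7.29%). Ext1 and Ext2 form the polymerase of heparan sulfate, and Extl3 adds the first N-acetylglucosamine. Extl2 did not pass in control cells (log2 0.16, adjusted p = 0.247 in limma). Ext2 went from 2068, 2053 and 2333 to 2591, 2804 and 2746 normalized counts in control cells (log2 0.34, SE 0.06, adjusted p = 0.00132). In NFAT5KO cells it went from 2352, 2138 and 2157 to 2610, 2397 and 2592 (log2 0.19, SE 0.06, adjusted p = 0.0469). Neither pair of groups overlapped, and the difference was -0.14 with an interval of -0.32 to 0.04. The NFAT5KO call of Ext2 was lost in 7 of 17 alternatives. Extl3 rose in control cells from a mean of 598 to 748 normalized counts (log2 0.32, SE 0.08, adjusted p = 0.0118), and its log2 fold change of 0.17 in NFAT5KO cells did not pass. Ext1 and Extl1 follow with the differences between the genotypes.

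Of the 7 enzymes that modify heparan, 2 rose in control cells (28.6%, against 26.0% of all genes passing in either direction). In NFAT5KO cells 0 passed (against 14.7% of all genes, limma, with 1 at an unadjusted p below 0.05). Hs6st1, a 6-sulfotransferase, held 1163, 1066 and 1197 normalized counts in control -NaCl and 1306, 1388 and 1427 in control +NaCl libraries (log2 0.27, SE 0.06, adjusted p = 0.00633). Ndst1, which removes acetyl groups and adds N-sulfate, went from a mean of 1047 to 1179 (log2 0.17, SE 0.05, adjusted p = 0.0391), a call that 8 of 17 alternatives lost, among them leaving out any library of control cells other than -NaCl replicate 2. Hs2st1, the 2-sulfotransferase, lay just outside the threshold with a log2 fold change of 0.13 (adjusted p = 0.0510 in limma). Glce, the epimerase of the heparan uronic acid, had log2 fold changes of 0.07 and 0.01.

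Ndst2, an isoenzyme of Ndst1, varied more between libraries of a group than between groups. It held 96.8, 9.32 and 8.38 normalized counts in control -NaCl, 19.3, 20.8 and 66.7 in control +NaCl, 37.5, 84.0 and 10.2 in NFAT5KO -NaCl, and 14.0, 11.9 and 8.47 in NFAT5KO +NaCl libraries. The libraries at 96.8, 66.7, 84.0 and 37.5 lay above all others, and no comparison passed. The response of Ndst2 in NFAT5KO cells did pass in 2 of 17 alternatives. Hs6st2 and Hs3st3b1, a 6- and a 3-sulfotransferase, did not pass in either genotype.

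The extracellular sulfatases remove 6-sulfates from finished heparan chains at the cell surface. Sulf2 fell most of the 37 genes, and in both genotypes. It held 334, 286 and 317 normalized counts in control -NaCl and 145, 126 and 107 in control +NaCl libraries, against 212, 377 and 318 in NFAT5KO -NaCl and 115, 97.7 and 103 in NFAT5KO +NaCl libraries. The +NaCl libraries lay below all -NaCl libraries in both genotypes, and NFAT5KO -NaCl replicate 1 was the lowest of its group. The log2 fold changes were -1.31 (SE 0.13, adjusted p = 3.53e-05) and -1.48 (SE 0.18, adjusted p = 0.00106), and their difference was -0.17 with an interval of -0.69 to 0.35.

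Sulf1, its paralog, was lower per length (0.516 against 4.40 RPKM in control -NaCl, where RPKM is RPM divided by the gene length in kilobases) and did not fall. It held 46.6, 33.1 and 61.4 normalized counts in control -NaCl and 75.9, 47.0 and 52.6 in control +NaCl libraries, which overlapped (log2 0.32, adjusted p = 0.445 in limma). In NFAT5KO cells it rose from 28.7, 24.6 and 19.6 to 42.1, 56.0 and 46.6 (log2 0.96, SE 0.26, adjusted p = 0.0282). The NFAT5KO call of Sulf1 was lost in 6 of 17 alternatives. The difference of 0.64 did not pass, with an interval of -0.17 to 1.45.

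Of the 4 precursor genes, 1 rose and 1 fell in each genotype. Of all genes, 26.0% passed in either direction in control cells and 14.7% in NFAT5KO cells. Ugdh, the dehydrogenase that makes UDP-glucuronic acid for both kinds of chain, fell in control cells from 2030, 1996 and 2152 to 1408, 1458 and 1389 normalized counts. In NFAT5KO cells it fell from 2239, 2537 and 2310 to 1864, 1900 and 1754. The groups did not overlap (log2 -0.54, SE 0.05, adjusted p = 1.57e-05 and log2 -0.36, SE 0.06, adjusted p = 0.00378), and the difference of 0.18 did not pass (interval 0.01 to 0.34, adjusted p = 0.330 in limma).

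Papss2, a synthase of the sulfate donor PAPS, rose in control cells from 1208, 1168 and 1184 to 1686, 1727 and 1673 normalized counts (log2 0.51, SE 0.04, adjusted p = 1.40e-05). Papss2 in NFAT5KO cells rose from 1077, 839 and 809 to 1259, 1144 and 1412 (log2 0.49, SE 0.11, adjusted p = 0.0119), again without overlap. The difference was -0.02 with an interval of -0.29 to 0.25. Papss1, the other PAPS synthase, had log2 fold changes of 0.06 and 0.08, and the sulfate transporter Slc26a2 -0.28 and 0.07, none of which passed.

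**Figure D2:**
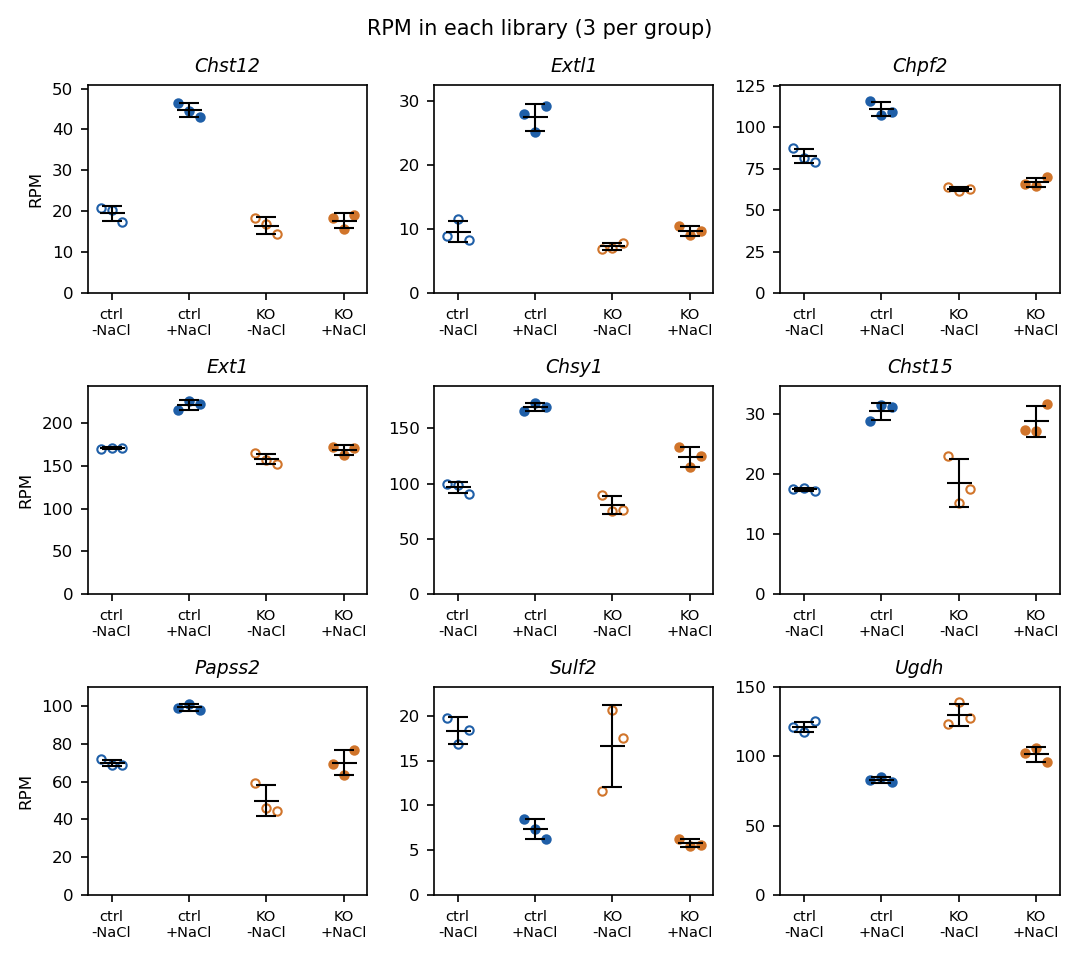
RPM in each library for 9 of the genes, with open points at -NaCl, filled points at +NaCl, control cells in blue, NFAT5KO cells in orange, and black bars for the mean and SD of 3 libraries. Chst12 lies at 43.0 to 46.5 in control +NaCl and at 14.4 to 20.8 in the other 9 libraries, while Chsy1, Sulf2 and Ugdh shift with NaCl in both genotypes.

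Set against each other, 8 of the 37 genes passed in both genotypes, namely Chsy1, Chsy3, Chst15, Ext2, Extl1 and Papss2 upward and Sulf2 and Ugdh downward. A further 8 passed in control cells alone, 3 in NFAT5KO cells alone and 18 in neither. The matching shares of all genes were not counted, so these counts do not show a trait of the set. Passing in only one genotype does not show a difference, so the difference itself was tested in one model of all 12 libraries. Of the 37 genes, 4 differed, all with a smaller rise in NFAT5KO cells (10.8%, against 1.44% of 16849 genes with a more negative response), and 0 had a more positive response (0.362% of all genes, limma; 8 of the 37 had an unadjusted p below 0.05 in either direction). In either direction 1.80% of all genes passed. The differences were negative for 30 of the 37 genes, with a median of -0.14, against 0.00 over all genes. All 13 genes that rose in control cells had a negative difference, but the same control libraries enter both measures. Of the 8 genes that passed in control cells alone, the difference passed for Chst12, Chpf2 and Ext1 and did not pass for B3gat3, Chst3, Extl3, Ndst1 and Hs6st1.

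**Figure D3:**
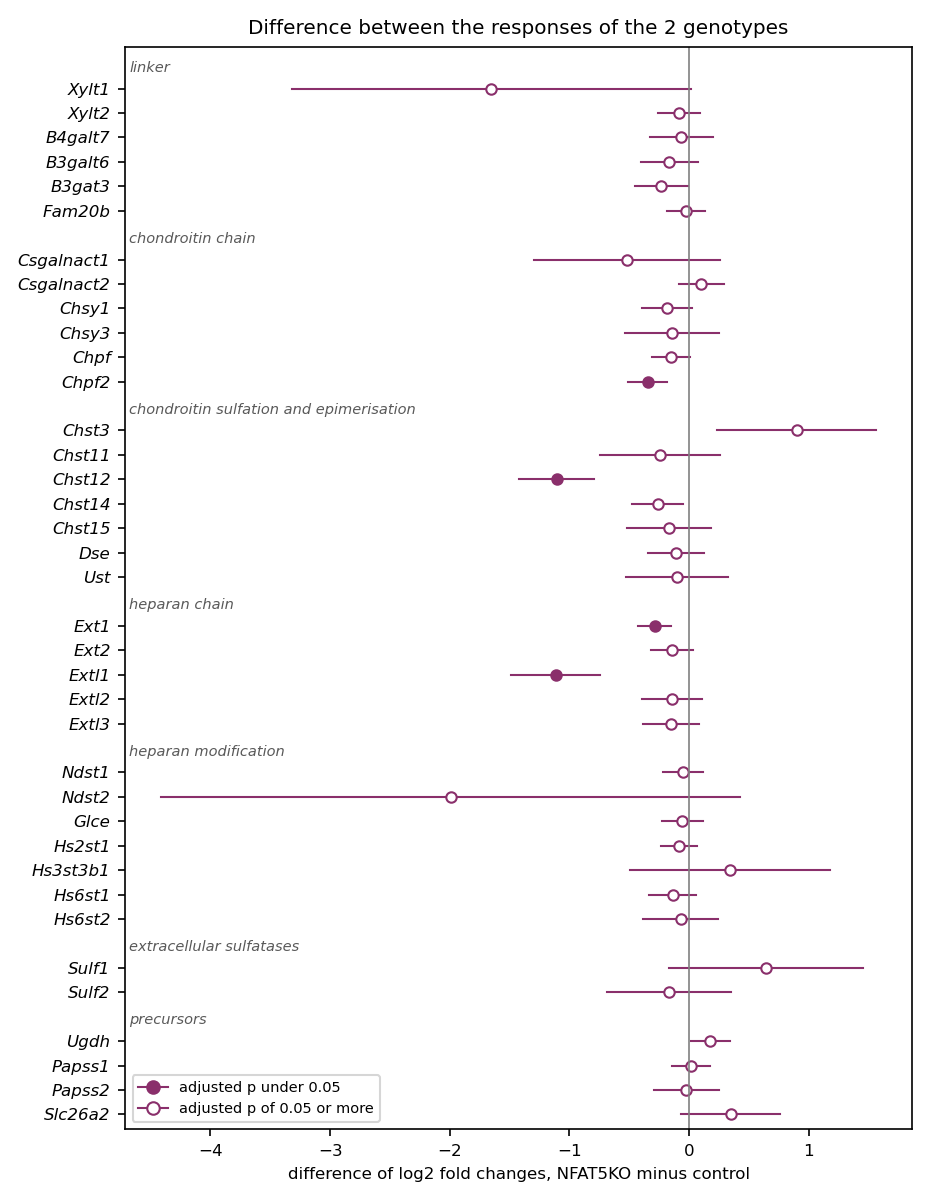
Difference between the log2 fold changes of the genotypes, NFAT5KO minus control, for each of the 37 genes with its 95% interval from limma; filled points passed an adjusted p of 0.05. Chst12 (-1.11) and Extl1 (-1.12) are separated from Chpf2 (-0.35) and Ext1 (-0.29), and the intervals of Xylt1 and Ndst2 are wide.

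Chst12, a chondroitin 4-sulfotransferase, rose in control cells and did not pass in NFAT5KO cells. It held 350, 343 and 301 normalized counts in control -NaCl and 792, 763 and 738 in control +NaCl libraries, a 2.31-fold rise (log2 1.21, SE 0.08, adjusted p = 1.65e-06). The NFAT5KO libraries held 333, 308 and 260 at -NaCl and 333, 280 and 351 at +NaCl, which overlapped (log2 0.10, SE 0.12, adjusted p = 0.640). The difference was -1.11 (SE 0.15, adjusted p = 0.000572), and it passed under all 22 alternatives with an adjusted p of at most 0.0185. Its listed span, chr12:16200019-16201632 on the minus strand of the tables' build, which is not stated, is as long as its listed length of 1614 bases, so that reads of any exon outside it were not counted.

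Extl1, an exostosin-like glycosyltransferase assigned to heparan chain elongation, rose in both genotypes by unlike amounts. It held 150, 195 and 143 normalized counts in control -NaCl and 476, 428 and 501 in control +NaCl libraries, a 2.89-fold rise (log2 1.53, SE 0.12, adjusted p = 8.26e-06). In NFAT5KO cells it held 126, 128 and 143 at -NaCl and 191, 162 and 176 at +NaCl. These groups did not overlap either, and the 1.33-fold rise (log2 0.41, SE 0.13, adjusted p = 0.0497) lost its call in 12 of 17 alternatives, with an adjusted p up to 0.157. The difference of -1.12 (SE 0.18, adjusted p = 0.00260) passed under all 22 alternatives. The gene lies at chr5:152573758-152589719 on the minus strand of the tables' build.

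The 250 bases before the start of Extl1 are shown because it had the largest called difference and a single annotated transcript. They come from RefSeq on build GRCr8 (chr5:151872831-151873080, minus strand) and are read in the direction of the gene. Capitals mark GGAAA, the core shared by binding sites of the NFAT and NF-kB families, here on the opposite strand and so written TTTCC.
Extl1: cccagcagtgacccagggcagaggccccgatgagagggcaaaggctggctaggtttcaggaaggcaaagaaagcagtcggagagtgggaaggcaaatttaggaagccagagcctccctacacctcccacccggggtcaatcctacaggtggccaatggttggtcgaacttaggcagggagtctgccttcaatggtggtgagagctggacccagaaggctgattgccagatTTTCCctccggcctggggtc
The core lay 16 to 20 bases before the start. Of the 38 genes, 30 matched a RefSeq window by symbol, and in 9 of these the window lay outside the gene's own span. For Chst12 and Chpf2 other transcripts start further upstream, and their windows are not shown. On either strand 4 of the 9 windows held GGAAA (44.4%, against 57.5% of 19339 such windows of all genes), and 1 held TGGAAA, which contains it (11.1%, against 21.0%). The tonicity-responsive element TonE, the consensus for NFAT5, which contains both, stood in 0 of 9 (against 5.87%). A match or its absence in so short a window says nothing of binding, which was not measured.

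Chpf2 and Ext1 differed by less. Chpf2, a second polymerizing factor of chondroitin, held 1473, 1380 and 1362 normalized counts in control -NaCl and 1973, 1839 and 1872 in control +NaCl libraries (log2 0.43, SE 0.05, adjusted p = 0.000115). The NFAT5KO libraries held 1163, 1127 and 1141 at -NaCl and 1198, 1156 and 1284 at +NaCl (log2 0.08, SE 0.06, adjusted p = 0.394). Control groups were apart and NFAT5KO groups overlapped, and the difference was -0.35 (SE 0.08, adjusted p = 0.0278).

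Ext1 held 2861, 2913 and 2948 normalized counts in control -NaCl and 3674, 3873 and 3809 in control +NaCl libraries (log2 0.38, SE 0.04, adjusted p = 4.80e-05). In NFAT5KO cells it held 3000, 2875 and 2770 at -NaCl and 3134, 2926 and 3156 at +NaCl, which overlapped (log2 0.09, SE 0.05, adjusted p = 0.291). The difference was -0.29 (SE 0.06, adjusted p = 0.0331). The difference lost its call in 9 of 22 alternatives for Chpf2 and in 10 for Ext1, with adjusted p up to 0.104 and 0.134. The genes lie at chr4:7108462-7113919 and chr7:92605728-92882068, both on the minus strand.

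The calls in NFAT5KO cells and those of the difference depended on single libraries and on the model of the spread. In place of 11 genes, 10 passed in NFAT5KO cells without -NaCl replicate 1, 4 when -NaCl replicate 2 was left out, 5 for -NaCl replicate 3, 7 for +NaCl replicate 1 and 6 for either of the other +NaCl libraries. In place of 4, 2 differed without control -NaCl replicate 2, control +NaCl replicate 3, NFAT5KO -NaCl replicate 1 or NFAT5KO +NaCl replicate 1 or 2, and 3 or 4 without any other library. In control cells 14 to 16 of 16 passed. With no mean-variance trend in limma, 11 passed in control cells, 0 in NFAT5KO cells (13 at an unadjusted p below 0.05, and 9 with edgeR and 10 with DESeq2) and 2 for the difference.

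Per length, the set spanned more than 3 orders of magnitude. In control -NaCl libraries the highest were Chpf with 58.5 RPKM (SD 2.07, n = 3), Ugdh with 52.2 (SD 1.61), Ext1 with 49.9 (SD 0.285) and Ext2 with 44.0 (SD 2.77). The median of the role groups was 27.9 for precursors, 21.3 for the chondroitin chain, 16.7 for the linker, 13.4 for heparan modification, 10.6 for the heparan chain, 4.96 for chondroitin sulfation and 2.46 for the sulfatases. Of the 4-sulfotransferases, Chst12 (12.1, SD 1.10) stood above Chst11 (2.14, SD 0.230), and of the sulfatases Sulf2 (4.40, SD 0.356) above Sulf1 (0.516, SD 0.151). Neighbours such as Xylt2 (19.6, SD 1.37) and Papss2 (19.3, SD 0.467) lay within each other's spread. In control +NaCl libraries Chst12 reached 27.7 (SD 1.08) and Chsy1 45.0 (SD 1.01), while Ugdh fell to 35.8 (SD 0.918).

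**Figure D4:**
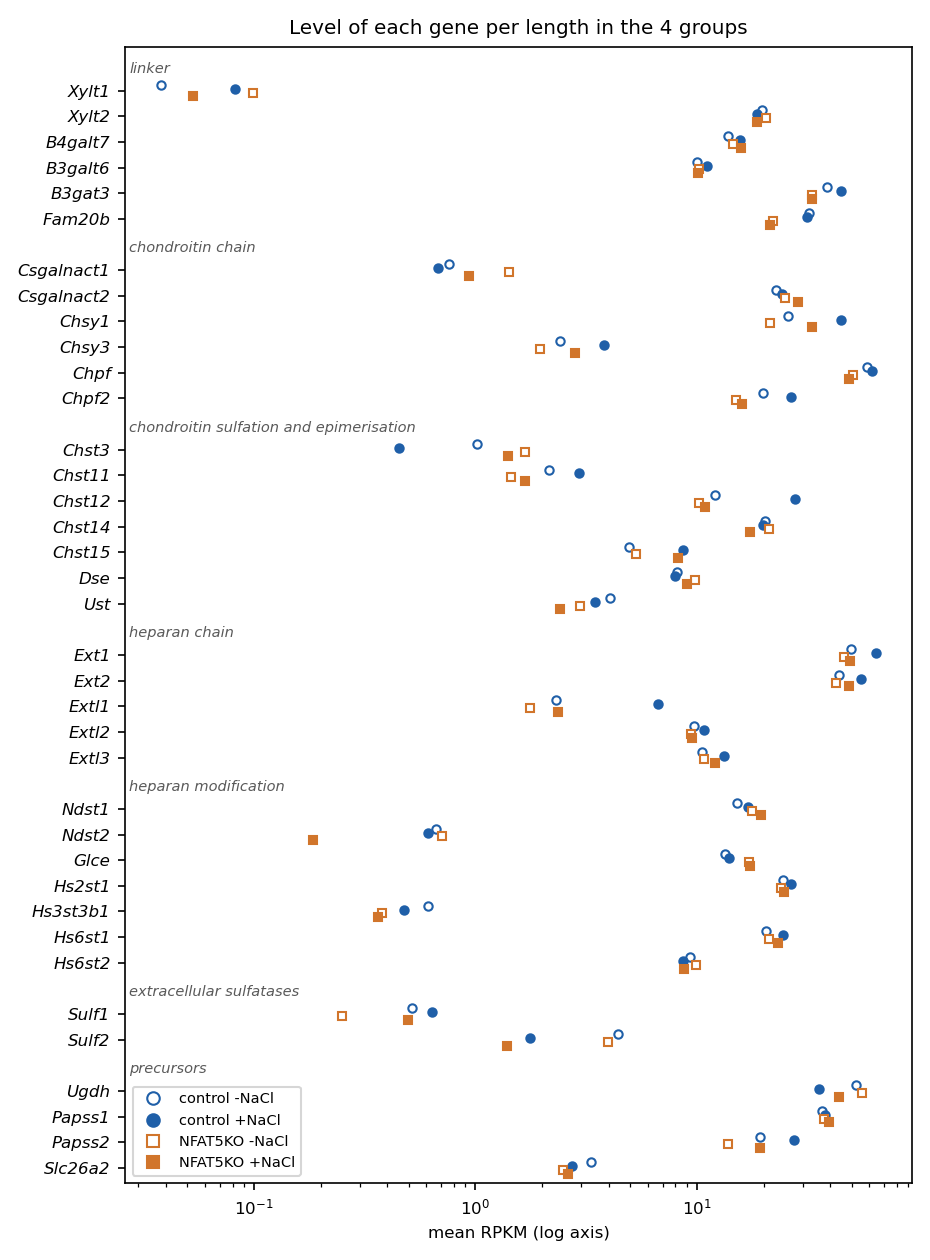
Mean RPKM, RPM per kilobase of gene length (log axis), of the 37 genes in the 4 groups of 3 libraries, with circles for control and squares for NFAT5KO cells, open at -NaCl and filled at +NaCl. Chpf, Ugdh, Ext1 and Ext2 are highest and Xylt1, at most 0.0984, is lowest, and for Chst12 and Extl1 the control +NaCl circle lies apart from the other groups.

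Between the genotypes, levels scaled to equal depth were compared without a test, because the tables were normalized separately and the NFAT5KO cells are 1 clone. At -NaCl, 7 of the 37 genes were higher in every NFAT5KO than in every control library and 14 were lower (18.9% and 37.8%), against 16.1% and 23.7% of all genes. At +NaCl, 5 were higher and 16 lower (13.5% and 43.2%), against 19.0% and 25.6%. The median log2 ratio of NFAT5KO to control was -0.04 at -NaCl and -0.19 at +NaCl over the set, and -0.04 at either over all genes.

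Several genes already differed at -NaCl. Fam20b held 164, 166 and 157 RPM in control and 115, 111 and 110 in NFAT5KO cells, a ratio of 0.690 that was 0.682 at +NaCl, and the Abl2 gene overlaps it on the opposite strand. Chst11 (ratios 0.674 and 0.575), Ust (0.737 and 0.694), Papss2 (0.715 and 0.704) and Chpf2 (0.760 and 0.601) were also lower without overlap in both media. So were Chsy1 (0.831 and 0.734), Chsy3 (0.814 and 0.741), Chpf (0.871 and 0.788), B3gat3 (0.860 and 0.738) and Ext1 (0.925 and 0.762). Glce (1.28 and 1.24), Ndst1 (1.17 and 1.14), Csgalnact2 (1.10 and 1.18) and Chst3 (1.65 and 3.09) were higher without overlap in both.

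For Chst12 the genotypes overlapped at -NaCl, with 20.8, 20.2 and 17.5 RPM in control and 18.3, 16.8 and 14.4 in NFAT5KO cells. At +NaCl they stood apart, with 46.5, 44.6 and 43.0 against 18.3, 15.6 and 19.1, a ratio of 0.395. Extl1 was lower in NFAT5KO cells in both media, with ratios of 0.759 and 0.354. Ugdh overlapped at -NaCl and was higher in NFAT5KO cells at +NaCl (ratio 1.22).

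Genes next to the set in the pathway were counted from lists by role. Of 9 other glycosaminoglycan transferases tested in control cells, 2 rose and 0 fell (5 at an unadjusted p below 0.05), or 22.2% against 26.0% of all genes. They were Pxylp1, the phosphatase that removes the phosphate added by Fam20b (log2 0.81, SE 0.16, adjusted p = 0.00315), and Chst13, a further 4-sulfotransferase (log2 0.43, SE 0.07, adjusted p = 0.000779). In NFAT5KO cells Pxylp1 rose (log2 0.58, adjusted p = 0.0102 in limma) and the 6-sulfotransferase Chst7 fell (log2 -0.65, adjusted p = 0.00682 in limma), or 25.0% of 8 tested against 14.7% of all genes. No difference passed among 8 (against 1.80% of all genes). Of 21 other genes of precursor supply, 8 rose and 4 fell in control cells and 0 rose and 3 fell in NFAT5KO cells, or 57.1% against 26.0% of all genes and 14.3% against 14.7%. Slc35d1, which carries UDP-sugars into the endoplasmic reticulum, rose in control cells (log2 0.40, adjusted p = 0.00290 in limma).

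Of 22 core proteins that carry the chains, 9 rose and 5 fell in control cells (63.6%, against 26.0% of all genes), and 4 rose and 2 fell in NFAT5KO cells (27.3%, against 14.7%). The largest rises in control cells were those of Cspg4 (log2 0.77, SE 0.13), the glypican Gpc1 (0.65, SE 0.03), the syndecan Sdc3 (0.61, SE 0.04) and decorin, Dcn (0.58, SE 0.15), with adjusted p of at most 0.0149 in limma. Dcn (0.66) and Gpc1 (0.33) rose in NFAT5KO cells too. The response differed for 2 of the 22 (9.09%, against 1.80% of all genes), the syndecans Sdc4 (-0.49, SE 0.08, adjusted p = 0.00363) and Sdc3 (-0.47, SE 0.07, adjusted p = 0.00188).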

How the data were processed

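Poly-A RNA of 12 libraries was made into NEBNext Ultra libraries and sequenced by a service company. For each gene the deposited values are normalized read counts (a signal, not whole counts), which the authors scaled by 1 factor per library, separately in a control and an NFAT5KO table. Aligner, counter, versions and strandedness are not given in the sources used here. The labels name build mm10, of the mouse, whereas gene IDs and coordinates are of the rat, and the build of these coordinates is not stated. The genotype in the column labels was followed where table names disagreed with it. Columns holding the authors' fold changes and p-values, and 24 columns without a sample name, were not used.

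Each library was divided by its smallest step, and 100% of values were whole reads within 0.1 read. These recovered reads gave the depth, RPM and, with the listed gene length, RPKM. Genes averaging at least 1 normalized count were tested with limma 3.58.1 (R 4.3.3, moderated test with a mean-variance trend) on log2 of the normalized count plus 1, so that fold changes of low genes are understated. Benjamini-Hochberg adjustment ran over all genes, with a threshold of 0.05. The difference between genotypes was tested in 1 model of the 12 libraries, in which a factor per table cancels. P-values measure the spread between these libraries.

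All 38 genes are named; from other lists, at most 4 called genes a comparison with the largest changes and a mean of at least 50 normalized counts, except some that are not reported here. Genes and lists were chosen with earlier results of these data known. Scripts were tested on simulated data. Alternatives were pseudocounts of 0.5 and 5, a minimum mean of 10 or none, equal totals, TMM, the replicate block, no trend, count tests of the recovered reads (edgeR 4.0.16, DESeq2 1.42.0), the model of 12 libraries for each genotype and leaving out each library.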

Additional observations from a re-analysis of the deposited data

Results flagged for a closer look

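The response to +NaCl differed between the genotypes for 4 of the 37 genes, by the test of the difference in the model of all 12 libraries (limma, adjusted over 16849 genes). The NFAT5KO log2 fold change minus that of control was -1.12 for Extl1, -1.11 for Chst12, -0.35 for Chpf2 and -0.29 for Ext1. The values of the first pair passed in each alternative tried, and those of Chpf2 and Ext1 did not.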

How the results depend on the processing

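No result reversed. Of the genes called at first, 11 of 16 in control cells, 0 of 11 in NFAT5KO cells and 2 of 4 for the difference passed under each alternative tried. With no mean-variance trend, 11, 0 and 2 genes passed, with 13 at an unadjusted p below 0.05 in NFAT5KO cells. In NFAT5KO cells edgeR gave 9 and DESeq2 10. The replicate block gave 16, 6 and 3 genes. Same-numbered libraries did not deviate together (correlations from -0.05 to 0.03), and the numbers share no stated batch. Leaving out one library gave 14 to 16 genes in control cells, 4 to 10 in NFAT5KO cells and 2 to 4 for the difference. The remaining settings gave 15 to 18, 9 to 11 and 4. Over all genes, the control count of 4450 became 2763 with no trend. The NFAT5KO count of 2441 became 14 with no trend, and 943, 1116 and 1421 without -NaCl replicate 2, -NaCl replicate 3 and +NaCl replicate 3. The difference count of 304 became 481 with DESeq2, 103 with no trend, and 159 to 200 without 1 of the control libraries other than -NaCl replicate 3. The cause of these shifts was not tested. Signs of genes that were not called turned in 11, 17 and 13 of 627, 627 and 812 values. Depth limits Xylt1 (1 to 7 reads in each library).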

Other observations

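Keratan sulfate, a glycosaminoglycan built on N-acetyllactosamine repeats, uses its own transferases. Of 6 such genes tested, 2 rose and 1 fell in control cells and 0 rose and 2 fell in NFAT5KO cells, or 50% against 26.0% of all genes and 33.3% against 14.7%. B3gnt2, which extends the N-acetyllactosamine chain, rose in control cells (log2 0.65, SE 0.06, adjusted p = 3.25e-05) and its response differed (-0.62, SE 0.09, adjusted p = 0.00154, limma). Chst2, a 6-sulfotransferase of N-acetylglucosamine, rose in control cells by 0.27 and also differed (-0.36, SE 0.08, adjusted p = 0.0355). Chst1, which sulfates galactose, fell in both genotypes, by log2 fold changes of -0.51 and -0.68, and B3gnt7 fell in NFAT5KO cells (-0.78).

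Of 14 genes of lysosomal glycosaminoglycan breakdown, 7 rose and 0 fell in control cells (8 at an unadjusted p below 0.05) and 1 rose in NFAT5KO cells (5 at an unadjusted p below 0.05), or 50% against 26.0% of all genes and 7.14% against 14.7%. Sumf1, which activates sulfatases, rose in control (log2 0.56, SE 0.04) and NFAT5KO cells (0.21, SE 0.06), and the responses differed (-0.36, SE 0.07, adjusted p = 0.0141, limma). Arsg, a lysosomal sulfatase, rose in control cells (0.61, SE 0.08) and differed as well (-0.48, SE 0.11, adjusted p = 0.0315). Hexa, a hexosaminidase subunit, rose in control cells (0.31).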
